A study of Mus musculus with 2 samples.

Results

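Upper-villus enterocytes are described here as the 1107 cell barcodes with the highest landmark score among 4422 scored enterocyte barcodes, out of 16451 deposited barcodes in all. They were chosen by measured values, the transcript counts of 9 landmark genes in each barcode. They came from 2 single-cell libraries of proximal small bowel from C57BL/6 mice, both of the control group. Control 1 (titled as an M1 control) held 699 of them and control 2 (titled as an M3 control) 408. The series lowers M1 or M3 muscarinic acetylcholine receptors in other mice, while its design text states that control animals supplied the suspensions. Epithelium was released from 2 mm tissue pieces by 20 mM EDTA over 60 min and by the trypsin-like enzyme TrypLE over 10 min, and passed through a 30 µm strainer before 10x Genomics capture. A barcode's place on the villus was not recorded, and position is read here only from RNA. The age of the mice and the number of animals in a library are not stated in the labels.

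The villus of the small intestine is a conveyor of cells. Enterocytes are born in the crypt, climb the villus over their short life and are shed at the tip, and on the way they change which genes they use. Cells low on the villus are known for antimicrobial lectins of the Reg family and for glutathione S-transferases, and cells in the middle for absorption of amino acids and sugars. Cells near the top are known for packing dietary fat into chylomicrons with Apoa4 and for breaking down purines with Ada and Nt5e.

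The score used that contrast. A barcode was scored if it had at least 500 genes, under 5% mitochondrial UMIs (unique molecular identifiers, 1 per captured RNA molecule) and at least 1% of UMIs from Fabp1, Fabp2 and Rbp2. It also had to lack Ptprc, a leukocyte gene, and to hold under 2 UMIs of the stem cell gene Olfm4. The UMIs of the upper landmarks Apoa4, Ada, Nt5e and Slc28a2 were divided by the UMIs of these genes and of the lower landmarks Reg1, Reg3b, Reg3g, Gsta1 and Gstm3, which had to reach 3 together. Members are the barcodes at or above the 75th percentile of the score in their library. The lowest member score was 0.5 in control 1, shared by 75 barcodes, and 0.667 in control 2, shared by 48. Just outside, the highest scores were 0.492 and 0.652. A score of 1, with no lower landmark UMI, was held by 101 and 78 members. The score of many members rested on few molecules, since 181 and 116 members had 3 to 5 landmark UMIs.

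**Figure D1:**
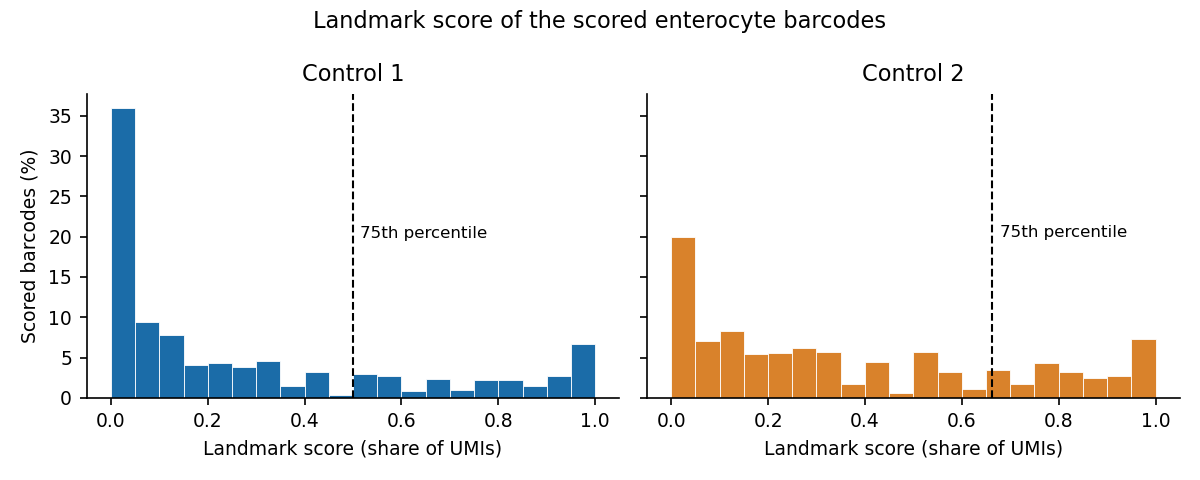
Share of scored barcodes (percent, vertical axis) in each bin of the landmark score (horizontal axis) for control 1 and control 2, with a dashed line at the 75th percentile that sets membership. The scores run on without a gap at the line, and 660 barcodes of control 1 and 219 of control 2 had a score of 0.

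Members were shallow. Their median was 1958 UMIs in control 1 and 2206 in control 2, against 2626 and 2471 in the other scored barcodes, and their summed UMIs were 1971492 and 1154504 against 7971288 and 3941732. The median mitochondrial share was 0.177% and 0.162% in members. Malat1, an abundant nuclear RNA, was at 0 in 47.8% and 31.6% of members, against 50.3% and 33.0% of the others, and stood in the sums at 783 against 273 CPM (UMIs scaled to 1000000) in control 1 and 676 against 607 CPM in control 2. A UMI of at least 1 of 9 lymphocyte genes was present in 75.1% and 80.6% of members and in 74.1% and 79.3% of the others. The libraries shared 17 barcode sequences, and no member was among them.

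The upper landmarks define the members, so their levels are a description with no test. Levels are in CPM, UMIs of a gene scaled to 1000000 UMIs of its sum, and in each pair the first value is the members' and the second that of the other scored barcodes. Apoa4, a lipoprotein component of chylomicrons, was at 12536 against 634 CPM in control 1 and 9987 against 1282 CPM in control 2. Ada, adenosine deaminase, was at 1914 against 38.8 CPM in control 1 and 2528 against 108 CPM in control 2. Nt5e, the ecto-enzyme that turns AMP into adenosine, was at 36.0 against 2.51 CPM in control 1 and 34.6 against 8.12 CPM in control 2. Slc28a2, a sodium-coupled purine nucleoside transporter, was at 117 against 5.14 CPM in control 1 and 99.6 against 15.5 CPM in control 2. The score was carried mainly by Apoa4, which supplied 85.8% and 79.0% of the members' upper landmark UMIs. Apoa4 was detected in 98.4% and 99.8% of members, Ada in 33.0% and 47.8%, Slc28a2 in 5.15% and 11.8%, and Nt5e in 1.86% and 4.66%. In the other scored barcodes Apoa4 was detected in 64.4% and 74.9%, Ada in 10.7% and 20.1%, Slc28a2 in 1.96% and 4.75%, and Nt5e in 0.956% and 2.54%. In 2036 and 973 barcodes with T cell receptor and Ptprc transcripts, Nt5e stood at 152 and 170 CPM and Slc28a2 at 191 and 174 CPM, above their levels in members. Apoa4 stood at 109 and 86.8 CPM and Ada at 25.6 and 43.4 CPM there, below the members.

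A small group of members held most of the purine landmark transcripts. The genes Ly6m, Pmp22, Clca4a, Tubb2a and Cldn4 were picked after their values were seen. They were picked as genes nearly limited to the higher-scoring members, so what follows is a description. Members with a UMI of 2 or more of these 5 genes numbered 44 of 699 in control 1 and 29 of 408 in control 2. They were 6.29% and 7.11% of members and held 10.9% and 8.96% of the members' UMIs. Among the other scored barcodes, 5 of 2093 and 5 of 1222 met the same description. The 44 and 29 barcodes held 91.5% and 67.5% of the members' Nt5e UMIs, 90.04% and 57.4% of the Slc28a2 UMIs, and 66.2% and 59.6% of the Ada UMIs. Their share of Apoa4 was smaller, at 33.9% and 23.5%, and their share of Apoa1, at 15.8% and 14.6%, was nearer to their share of all UMIs. Ada was detected in 42 of the 44 and in all 29, and in 26.4% and 41.4% of members with none of the 5 genes. Nt5e was detected in only 7 of the 44 and 8 of the 29, and Slc28a2 in 16 and 17.

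Of these barcodes, 41 of the 44 and all 29 lay above the median member score. This is no separate result, because the 5 genes were picked as nearly limited to higher-scoring members. The score also counts the Ada, Nt5e and Slc28a2 UMIs that these barcodes held. In control 1 a single barcode of 30789 UMIs held 988 Ada, 475 Ly6m, 472 Clca4a and 131 Slc28a2 UMIs. Without it, the remaining 43 barcodes held 54.1% of the Ada UMIs, 77.0% of the Slc28a2 UMIs and 89.5% of the Nt5e UMIs of control 1's members. In control 2 the barcode with most Ada UMIs held 12 of the members' 40 Nt5e UMIs. Without that barcode, the remaining 28 held 55.9% of the Ada, 52.0% of the Slc28a2 and 53.6% of the Nt5e UMIs of control 2's members. The 44 and 29 barcodes had median totals of 2484 and 3023 UMIs against 1886 and 2079 in members with none of the 5 genes, and the part of depth in their detection was not tested.

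**Figure D2:**
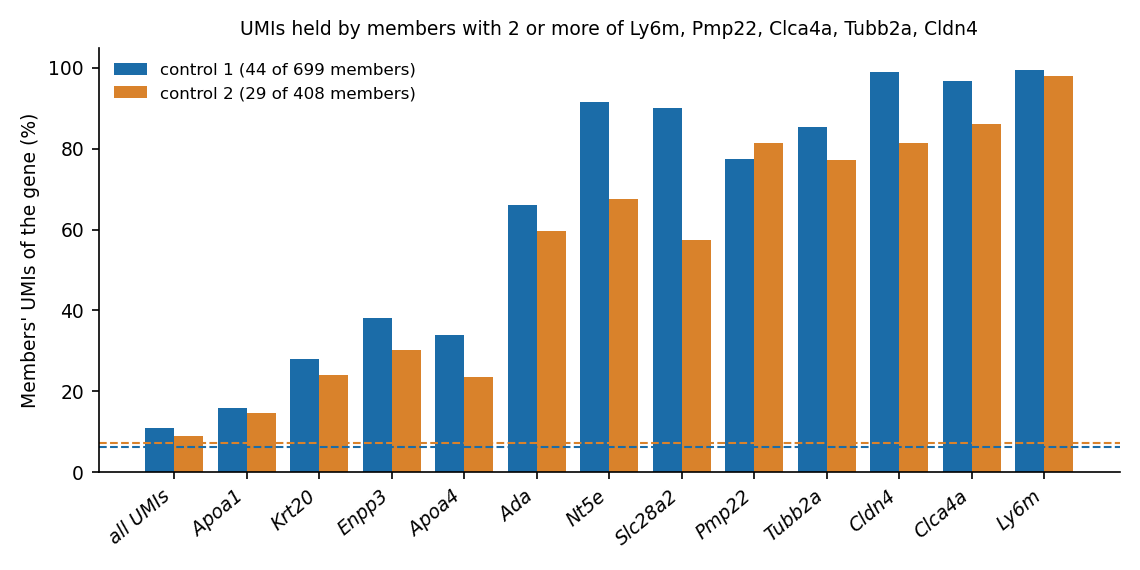
Percentage of the members' UMIs of each gene (vertical axis) that lay in members with UMIs of 2 or more of Ly6m, Pmp22, Clca4a, Tubb2a and Cldn4, for control 1 (44 members) and control 2 (29 members). Dashed lines give the share of members these barcodes make up, 6.29% and 7.11%. Nt5e, Slc28a2 and Ada stand far above the lines, and Apoa1 lies close to the share of all UMIs.

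Genes outside the gates and the score were compared by summing UMIs over members and over the other scored barcodes of each library, which gave 2 sums on each side. They were tested with the quasi-likelihood method of edgeR, library entering as a block, and CPM of tested genes leave the 27 gate and score genes out of the sum. Of 8994 tested genes, 1125 (12.5%) were higher and 824 (9.16%) lower in members at an adjusted p under 0.05, together 21.7%. Without the library block 492 of the 8994 were higher and 178 lower. The counts for lists below are to be set against these totals, with or without the block. The p-values measure how alike the ratio of members to others was in these 2 libraries, and this spread may be technical. The same barcodes gave both the score and these counts, so genes that vary along with the 9 landmarks within enterocytes were bound to differ. Among 2995 genes at 50 CPM or more, the log2 ratios of the 2 libraries correlated at r = 0.873 as a description across genes, which are not independent. All 1243 called genes among them had the same sign in both libraries.

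**Figure D3:**
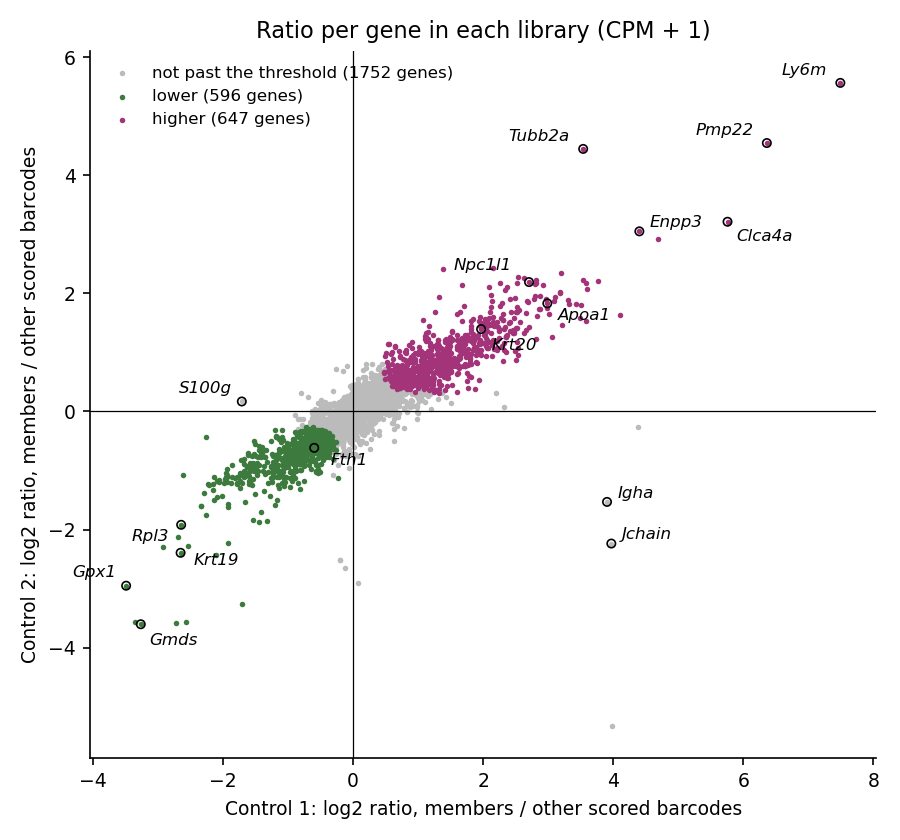
Log2 ratio of members to the other scored barcodes (CPM plus 1) in control 1 (horizontal axis) and control 2 (vertical axis) for the 2995 tested genes at 50 CPM or more. Colours mark genes higher (647), lower (596) or not past an adjusted p of 0.05; Ly6m and Pmp22 lie farthest to the upper right, Gmds and Gpx1 are among the lowest in both libraries, and the plasma cell genes Jchain and Igha, not past the threshold, have opposite signs.

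Genes known for the villus tip were mostly higher in members. On that list 12 of 15 were higher and 1 lower (11 and 1 without the library block), with a median log2 fold change of 1.85 against 0.02 over all tested genes. Pmp22, a tetraspan membrane protein found at junctions, stood at 196 against 1.40 CPM in control 1 and 87.6 against 2.79 in control 2 (log2 6.17 ± 0.38, adjusted p 0.000575; here and below log2 is the log2 fold change with its SE). Clca4a, a relative of calcium-activated chloride channel regulators, stood at 423 against 6.85 CPM in control 1 and 199.9 against 20.7 in control 2 (log2 4.54 ± 0.52, adjusted p 0.00223). A single barcode supplied 62.8% of the members' Clca4a UMIs in control 1, and without the 5% deepest barcodes of each library its log2 fold change was 3.54. Its neighbour Clca4b stood at 786 against 63.8 CPM in control 1 and 561 against 132 in control 2 (log2 2.78 ± 0.32, adjusted p 0.00223). Enpp3, an ecto-enzyme that clears extracellular ATP, was at 433 against 19.6 CPM in control 1 and 348 against 41.1 in control 2 (log2 3.71 ± 0.30, adjusted p 0.000955). Tmigd1, an adhesion protein of the brush border, was at 10.7 against 0.559 CPM in control 1 and 29.5 against 1.40 in control 2 (log2 4.21 ± 0.42, adjusted p 0.00168). The members were above the other barcodes in both libraries for each of these genes. The exception on the list was 2210407C18Rik, at 150.4 against 898 CPM in control 1 and 98.1 against 1166 in control 2 (log2 -3.13 ± 0.23, adjusted p 0.000794). Gna11 (1004 against 1199 and 854 against 999 CPM) and the cell cycle inhibitor Cdkn1a (349 against 248 and 422 against 293 CPM) did not pass the threshold.

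Ly6m, of the Ly6 family of GPI-anchored surface proteins, is encoded at chr15:74876987-74897021 (GRCm38, minus strand, GENCODE M21) and had the largest fold change among the genes named. It stood at 480.4 against 1.68 CPM in control 1 and 231 against 3.91 in control 2 (log2 7.08 ± 0.39, adjusted p 0.000536). A single barcode supplied 55.7% of the members' Ly6m UMIs in control 1 and 35.4% in control 2, and without the 5% deepest barcodes its log2 fold change was 5.74. Tubb2a, a beta tubulin, stood at 34.9 against 2.10 CPM in control 1 and 99.97 against 3.63 in control 2 (log2 4.34 ± 0.29, adjusted p 0.000638). Other genes outside the lists were also higher. Tm4sf4, a tetraspan membrane protein, was at 197 against 13.6 CPM in control 1 and 140.0 against 29.6 in control 2 (log2 3.004 ± 0.33, adjusted p 0.00194). Enpp7, the brush border sphingomyelinase, was at 71.0 against 5.73 CPM in control 1 and 60.0 against 16.2 in control 2 (log2 2.70 ± 0.37, adjusted p 0.00312). The secreted nuclease Dnase1 had a log2 fold change of 2.60, the mannose-binding lectin Mbl2 2.56 and the lactate transporter Slc5a12 2.57.

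How sharply genes changed along the score was read from 4 equal groups of scored barcodes ordered by score, of which group 4 holds the members. Of 647 higher genes at 50 CPM or more, 228 rose over all 4 groups in both libraries, and 524 reached at least 30% of the members' level already in group 3. Only Ly6m and Pmp22 were below 10% of the members' level in group 3 of both libraries. Ly6m stood there at 0.343% and 2.26% of the members' level, and Pmp22 at 1.40% and 3.98%. Of 596 lower genes, 315 fell over all 4 groups in both libraries.

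**Figure D4:**
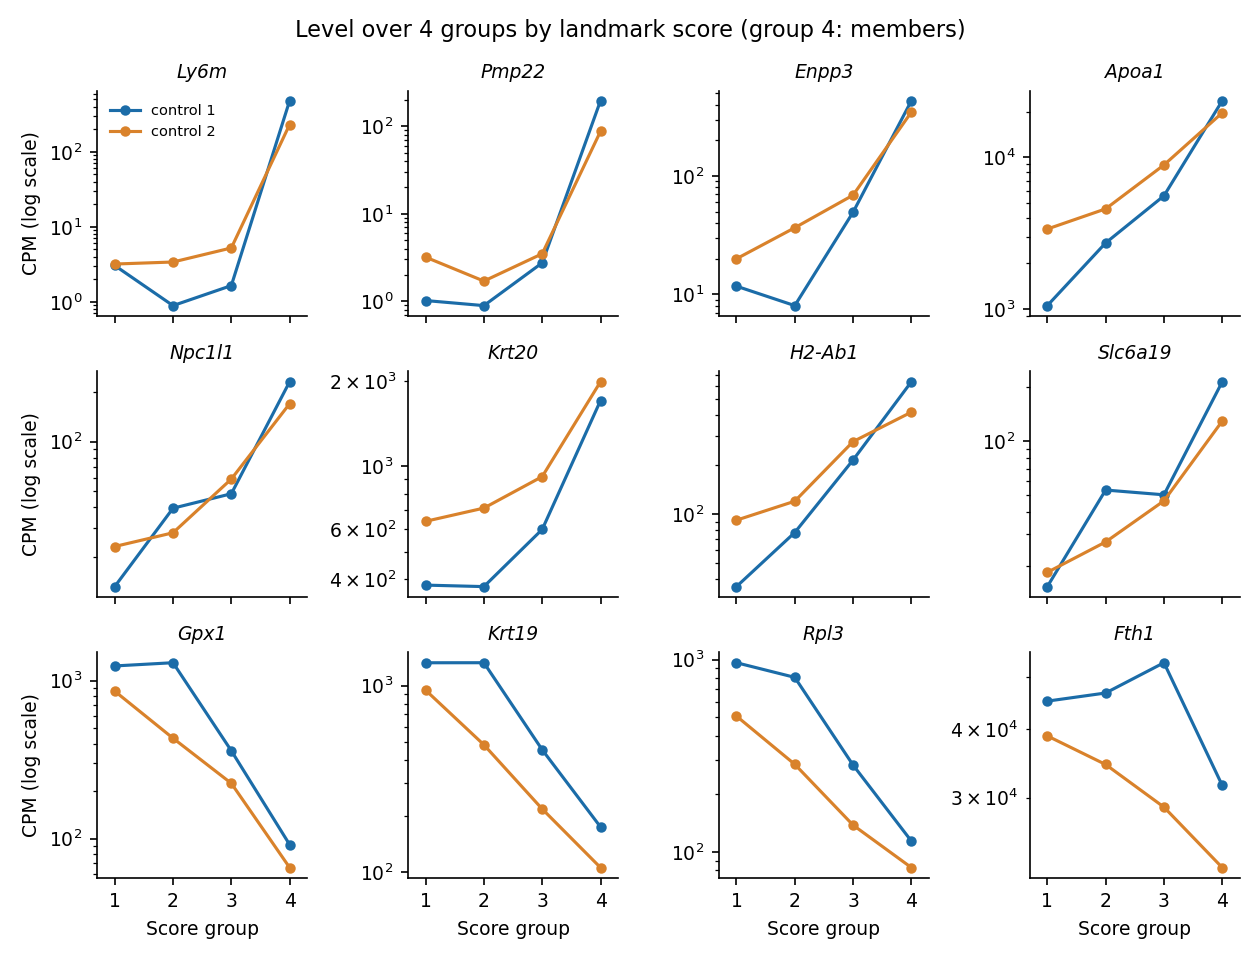
Level in CPM (vertical axes, log scale) of 12 genes in 4 groups of scored barcodes ordered by landmark score (horizontal axis; group 4 holds the members), with 1 line per library and 1 point per sum. Ly6m and Pmp22 jump in group 4, Apoa1 and H2-Ab1 climb through all groups, Gpx1 and Krt19 are lowest in group 4, and Fth1 in control 1 is highest in group 3.

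Members also differed among themselves. They were divided in each library at the median member score, 0.8 in control 1 and 0.847 in control 2, which put 356 and 204 members at or below it and 343 and 204 above it. The division follows the score and is a description. The lower-scoring members held a median of 6 landmark UMIs in each library and the higher-scoring ones 33, so a low score is also a less precise one. From lower- to higher-scoring members, Ly6m went from 3.92 to 841 CPM in control 1 and 4.07 to 432 in control 2. Clca4a went from 13.1 to 733 CPM in control 1 and 22.4 to 356 in control 2, and Cldn4 from 1.31 to 99.9 CPM in control 1 and 12.2 to 66.3 in control 2. Few barcodes supplied these levels. Among the 343 and 204 higher-scoring members, Ly6m was detected in 29 and 21, Clca4a in 45 and 35, and Cldn4 in 25 and 15. In the lower-scoring members these 3 genes were low, but they were among those picked as nearly limited to higher-scoring members, so this is no result. Pmp22, also picked, was not at its outside level in control 1. In CPM of all UMIs it stood in lower-scoring members at 10.6 against 1.25 outside the members in control 1, and at 3.68 against 2.54 in control 2. Apoa1, by contrast, was already well above the other barcodes among lower-scoring members and went from 10941 to 33309 CPM in control 1 and 12627 to 25946 in control 2. Krt20 went from 889.6 to 2320.2 CPM in control 1 and 1266 to 2620.0 in control 2. The immediate early gene Atf3 went from 3.92 to 56.4 CPM in control 1 and 6.098 to 35.8 in control 2, and the summed ribosomal protein transcripts from 46205 to 22079 CPM in control 1 and 33334 to 26456 in control 2.

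Genes of chylomicron assembly were broadly higher. The chylomicron is the particle in which absorbed fat leaves the enterocyte: Mogat2 and Dgat1 rebuild triglyceride, Mttp loads it onto Apob, and Apoa1, Apoa4 and Apoc3 join the particle. In this list 17 of 21 tested genes were higher and 0 lower (11 and 0 without the library block, median 1.13). All 22 genes of the list summed to 46941 against 8745 CPM in control 1 and 35883 against 11913 CPM in control 2. Apoa1 was at 23679 against 2989 CPM in control 1 and 19708 against 5541 in control 2 (log2 2.33 ± 0.28, adjusted p 0.0023). Apob was at 997 against 137 CPM in control 1 and 933 against 279 in control 2 (log2 2.23 ± 0.25, adjusted p 0.00203). Apoc3 was at 6395 against 1017 CPM in control 1 and 4071 against 1277 in control 2 (log2 2.09 ± 0.24, adjusted p 0.00218). The apolipoproteins of the particle outside the score were therefore higher together in both libraries. Cd36, a fatty acid receptor, was at 121 against 12.4 CPM in control 1 and 92.3 against 22.4 in control 2 (log2 2.63 ± 0.27, adjusted p 0.00184). Gpat3, which starts glycerolipid synthesis, was at 52.4 against 11.3 CPM in control 1 and 45.7 against 15.4 in control 2 (log2 1.84 ± 0.24, adjusted p 0.00269). The lipid droplet genes Plin2 (95.2 against 95.1 and 73.3 against 84.4 CPM), Plin3 (643 against 457 and 619.8 against 436 CPM) and Cideb (267 against 196 and 299.9 against 225 CPM) did not pass. With Apoa4 left out and membership set by any Ada, Nt5e or Slc28a2 UMI, an alternative added after the data were seen, 15 of 21 were higher and the median was 0.58. Over all 8586 genes tested with that membership, 587 were higher and 246 lower. Its counts for other lists are to be set against these totals.

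Apoa1, Apoc3 and Apoa4 are neighbours on chromosome 9 (GRCm38, GENCODE M21). Apoa1 spans 46228580 to 46230466 on the plus strand, Apoc3 46232933 to 46235636 on the minus strand and Apoa4 46240696 to 46243459 on the plus strand. Stretches ahead of 4 genes are shown because these genes either define the members or were higher in them: the neighbours Apoa4 and Apoa1, the lipid metabolism factor Creb3l3 and the surface keratin Krt20. Each is read 5′ to 3′ on the gene's strand from RefSeq's promoter windows (GRCm38.p6) and limited to bases outside the GENCODE gene. Creb3l3 and Krt20 are on the minus strand. Capitals mark a match to 1 of 4 motifs searched on both strands: the HNF4-type core CAAAGNNCA, the AP-1 site TGANTCA, the CRE core TGACG and the TATA box TATAAA.
Apoa4, chr9:46240594-46240695: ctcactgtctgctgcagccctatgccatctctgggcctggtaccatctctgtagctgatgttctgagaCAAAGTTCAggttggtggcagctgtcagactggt
Apoa1, chr9:46228380-46228579: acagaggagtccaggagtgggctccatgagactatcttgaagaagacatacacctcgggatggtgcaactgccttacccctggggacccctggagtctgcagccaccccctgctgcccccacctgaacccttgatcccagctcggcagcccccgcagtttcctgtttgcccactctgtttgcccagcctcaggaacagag
Creb3l3, chr10:81098875-81099122: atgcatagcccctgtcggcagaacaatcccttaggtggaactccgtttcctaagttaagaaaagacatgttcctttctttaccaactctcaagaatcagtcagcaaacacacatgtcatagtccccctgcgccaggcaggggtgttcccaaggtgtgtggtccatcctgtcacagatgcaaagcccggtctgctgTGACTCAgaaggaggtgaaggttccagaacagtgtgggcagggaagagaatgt
Krt20, chr11:99438154-99438403: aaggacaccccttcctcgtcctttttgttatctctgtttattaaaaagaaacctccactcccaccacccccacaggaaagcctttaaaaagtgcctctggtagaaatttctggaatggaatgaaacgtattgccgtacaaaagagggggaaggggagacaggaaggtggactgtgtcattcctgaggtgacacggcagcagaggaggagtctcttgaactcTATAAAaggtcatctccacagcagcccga

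The Apoa4 stretch held the HNF4-type core from 182 to 174 bases before RefSeq's start. That of Creb3l3 held an AP-1 site from 55 to 49 bases before it, and that of Krt20 a TATA box from 29 to 24 bases before it. None of the 4 motifs was found in the 200 bases of the Apoa1 stretch. A match describes letters and not a bound site. Over windows of 250 bases, the HNF4-type core was in 6.33% of the promoters of higher genes, 6.44% of those of lower genes and 4.95% of those of all tested genes. The AP-1 site was in 6.93%, 4.67% and 4.56% of them, the CRE core in 23.8%, 26.8% and 27.5%, and the TATA box in 10.1%, 7.58% and 6.70%.

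Cholesterol genes were mixed. Npc1l1, the brush border cholesterol importer, was at 230.4 against 34.5 CPM in control 1 and 169 against 36.3 in control 2 (log2 2.42 ± 0.17, adjusted p 0.000638). Soat2, which esterifies cholesterol for export, was at 54.6 against 21.1 CPM in control 1 and 43.8 against 24.6 in control 2 (log2 1.05 ± 0.21, adjusted p 0.0125), with an adjusted p of 0.051 without the library block. The efflux pump subunits Abcg5 and Abcg8 were higher as well, Abcg5 at 126 against 50.2 CPM in control 1 and 85.7 against 61.8 in control 2, with 0.10 as its adjusted p without the block. The synthesis enzyme Msmo1 and the sterol-sensing regulator Insig1 were higher too, with log2 fold changes of 1.36 and 1.12. In all, 6 of 15 were higher and 1 lower (3 and 0 without the library block; median -0.23), and the lower gene was another synthesis enzyme, Fdps (38.3 against 59.2 and 42.8 against 63.2 CPM). Among genes of fatty acid oxidation 5 of 25 were higher and 5 lower (3 and 0 without the library block, median -0.17). Over all tested genes the shares were 12.5% and 9.16%. Slc27a4, a fatty acid transporter with acyl-CoA synthetase activity, was higher at 273 against 52.5 CPM in control 1 and 153 against 62.3 in control 2 (log2 1.80 ± 0.23, adjusted p 0.00275), and the long-chain acyl-CoA synthetase Acsl5 had a log2 fold change of 1.42. Acaa2, which performs the last step of the mitochondrial cycle, was lower at 390.3 against 919 CPM in control 1 and 279 against 605 in control 2 (log2 -1.26 ± 0.14, adjusted p 0.00218), and the acyl-CoA dehydrogenases Acadl (-0.82) and Acadm (-0.67) were lower on the log2 scale as well.

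Peptide and amino acid uptake genes were mostly higher. Peptidases on the brush border cut dietary peptides, and transporters beside them carry the products into the cell. In this list 19 of 21 were higher and 0 lower (13 and 0 without the library block; median 1.51). Slc6a19, the neutral amino acid transporter, was at 215 against 41.9 CPM in control 1 and 129 against 30.2 in control 2 (log2 2.16 ± 0.15, adjusted p 0.000638). The peptidase Ace was at 385 against 37.6 CPM in control 1 and 175 against 48.9 in control 2 (log2 2.57 ± 0.31, adjusted p 0.00227). Both were named for large changes in the same direction, so their lack of overlap between members and others is only a description. The peptide transporter Slc15a1 was at 182 against 20.96 CPM in control 1 and 73.3 against 30.2 in control 2 (log2 2.24 ± 0.37, adjusted p 0.0055). The exchanger subunits Slc7a7 (157 against 83.0 and 76.2 against 71.3 CPM) and Slc7a9 (189.8 against 96.8 and 99.0 against 81.9 CPM) did not pass. With membership set by any Ada, Nt5e or Slc28a2 UMI, 6 of 21 were higher and the median was 0.41.

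Sugar genes split. In this list 8 of 16 were higher and 2 lower (3 and 0 without the library block; median 0.81). Treh, the disaccharidase trehalase, was higher at 291 against 53.6 CPM in control 1 and 159.9 against 61.5 in control 2 (log2 1.87 ± 0.23, adjusted p 0.0024). Lactase, Lct, was higher at 316 against 53.8 CPM in control 1 and 131 against 67.1 in control 2 (log2 1.75 ± 0.32, adjusted p 0.00807). Sis, sucrase-isomaltase, was lower at 857 against 1008 CPM in control 1 and 412 against 906 in control 2 (log2 -0.75 ± 0.21, adjusted p 0.0392), with an adjusted p of 0.34 without the library block. Of 15 alternative settings Sis did not pass in 6, and its direction was the same in all. Transcripts of the 3 disaccharidases therefore did not run in 1 direction. The apical glucose transporter Slc5a1 was at 891 against 314 CPM in control 1 and 668 against 369.7 in control 2 (log2 1.10 ± 0.17, adjusted p 0.00485). The basolateral Slc2a2 was at 234 against 101 CPM in control 1 and 181 against 93.1 in control 2 (log2 1.01 ± 0.14, adjusted p 0.00297). The fructose enzyme Khk (942 against 1153 and 736 against 994 CPM) did not pass.

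**Figure D5:**
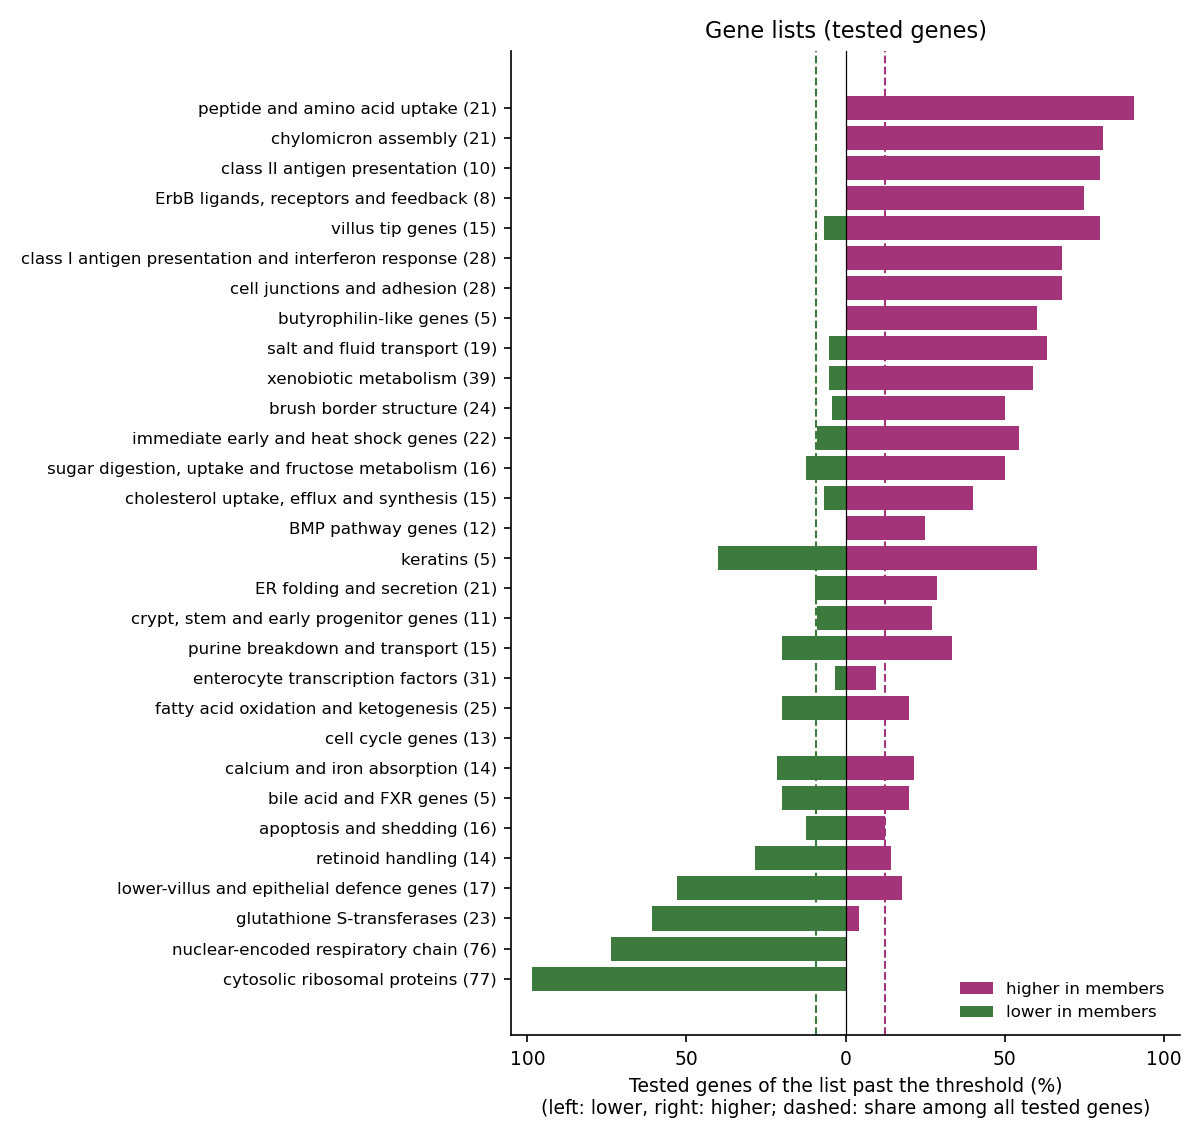
Percentage of the tested genes of each list that were higher (right) or lower (left) in members at an adjusted p under 0.05, with the number of tested genes in brackets and dashed lines at the shares over all tested genes, 12.5% higher and 9.16% lower. Peptide uptake, chylomicron assembly, class II presentation and villus tip genes lie far to the right, and ribosomal proteins and the respiratory chain farthest to the left.

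On the cell surface, members carried more transcripts of microvillus adhesion proteins and of junctions. Cdhr2, a protocadherin that ties microvilli together at their tips, was at 418 against 84.2 CPM in control 1 and 296 against 100.3 in control 2 (log2 1.87 ± 0.18, adjusted p 0.00159). Its partner Cdhr5 was at 945 against 191 CPM in control 1 and 775 against 265 in control 2 (log2 1.85 ± 0.19, adjusted p 0.00171). The membrane mucin Muc13 was at 965 against 233 CPM in control 1 and 1290.0 against 543 in control 2 (log2 1.57 ± 0.20, adjusted p 0.00253). Among brush border structure genes 12 of 24 were higher and 1 lower (4 and 0 without the library block; median 0.45). The lower gene was the membrane-bending protein Baiap2l2 (34.4 against 61.6 and 32.4 against 60.6 CPM), while the actin Actb (9189.6 against 9065 and 7606 against 6832 CPM) and the actin bundler Pls1 (1518 against 1117 and 2014 against 1741 CPM) did not pass. Among junction and adhesion genes 19 of 28 were higher and 0 lower (13 and 0 without the library block; median 1.17). Epcam, the epithelial adhesion molecule, was at 2102 against 432 CPM in control 1 and 1445 against 480.1 in control 2 (log2 1.86 ± 0.19, adjusted p 0.00168). The claudin Cldn4 was at 57.4 against 1.40 CPM in control 1 and 40.9 against 6.99 in control 2 (log2 3.79 ± 0.52, adjusted p 0.00319). It was detected in 26 of 699 and 20 of 408 members. With at least 5% of UMIs from Fabp1, Fabp2 and Rbp2, it did not pass (edgeR adjusted p 0.405). The adhesion molecule Ceacam1 was at 273 against 30.9 CPM in control 1 and 226 against 57.8 in control 2 (log2 2.49 ± 0.25, adjusted p 0.00168). Beta-catenin, Ctnnb1, was at 249.5 against 149.6 and 302 against 242 CPM and did not pass.

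The keratins of the cell skeleton went in both directions. Krt20, the keratin of mature surface enterocytes, was at 1704 against 435 CPM in control 1 and 1986 against 754 in control 2 (log2 1.60 ± 0.17, adjusted p 0.00189). Krt19 was at 175 against 1104 CPM in control 1 and 106 against 559 in control 2 (log2 -2.62 ± 0.16, adjusted p 0.000575). The pair ran in opposite directions in both libraries. Krt18 had a log2 fold change of 0.98, with an adjusted p of 0.096 without the library block, and Krt8 of 0.50 ± 0.15, adjusted p 0.0481, with 0.29 without it.

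Salt and fluid transport genes were mostly higher: 12 of 19 were higher and 1 lower (7 and 1 without the library block; median 1.03). Slc34a2, a sodium-phosphate cotransporter, was at 68.2 against 1.68 CPM in control 1 and 86.6 against 10.6 in control 2 (log2 3.91 ± 0.44, adjusted p 0.00204). The channel Aqp1, which passes water, was at 73.2 against 7.12 CPM in control 1 and 46.7 against 8.38 in control 2 (log2 2.91 ± 0.27, adjusted p 0.00136), and Aqp7, which also passes glycerol, at 32.1 against 3.21 and 18.1 against 3.35 CPM. The lower gene was the carbonic anhydrase Car4 (6.195 against 29.3 and 0.952 against 15.4 CPM). Among calcium, iron and metal genes 3 of 14 were higher and 3 lower (2 and 1 without the library block, median -0.24). Over all tested genes the shares were 12.5% and 9.16%. With membership set by any Ada, Nt5e or Slc28a2 UMI 9 of 14 were higher, beside 587 of 8586 over all genes tested that way. The ferritin heavy chain Fth1, which stores iron, was at 31586 against 47839 CPM in control 1 and 22333 against 34231 in control 2 (log2 -0.69 ± 0.20, adjusted p 0.0483), with an adjusted p of 0.42 without the library block. The metal-binding metallothioneins Mt1 (-1.09) and Mt2 (-2.14) were lower on the log2 scale. The iron oxidase Heph (1.27) and the zinc importer Slc39a4 (1.17) were higher. Cybrd1, the duodenal iron reductase, was higher at 9.57 against 0.978 CPM in control 1 and 44.7 against 3.63 in control 2, but 70.6% and 46.8% of its member UMIs came from 1 barcode in each library. S100g, the intestinal calcium-binding protein, had opposite signs in the libraries, at 995 against 3263 CPM in control 1 and 3185 against 2832 in control 2 (log2 -0.85 ± 0.41, adjusted p 0.184).

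Purine genes beyond the landmarks did not move as 1 group. Of this list, which also holds the fructose enzyme Tkfc, 5 of 15 were higher and 3 lower (3 and 0 without the library block; median 0.23). Entpd8, an ecto-enzyme that cuts ATP, was higher at 52.4 against 14.8 CPM in control 1 and 51.4 against 20.4 in control 2 (log2 1.52 ± 0.21, adjusted p 0.00345), and the guanine deaminase Gda had a log2 fold change of 0.74. Adk, the adenosine kinase of the salvage route, was lower at 51.8 against 100.03 CPM in control 1 and 46.7 against 78.2 in control 2 (log2 -0.94 ± 0.16, adjusted p 0.00687), and the salvage enzyme Aprt had -0.68. Pnp, the phosphorylase of the step after adenosine deaminase, did not pass, at 726 against 662 CPM in control 1 and 830.2 against 799 in control 2 (log2 0.02 ± 0.14, adjusted p 0.952).

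Drug and xenobiotic enzymes and glutathione enzymes went opposite ways. Among xenobiotic genes 23 of 39 were higher and 2 lower (13 and 0 without the library block; median 1.05). The drug-metabolising cytochrome P450 Cyp3a11 was at 1676 against 239 CPM in control 1 and 877 against 186 in control 2 (log2 2.45 ± 0.17, adjusted p 0.000751). Cyp3a13 of the same family was at 1188 against 172 CPM in control 1 and 743 against 197 in control 2 (log2 2.28 ± 0.21, adjusted p 0.00138). Cyp2b10 was at 319 against 73.3 CPM in control 1 and 190.4 against 58.7 in control 2 (log2 1.85 ± 0.15, adjusted p 0.00103). Among glutathione genes 1 of 23 were higher and 14 lower (0 and 5 without the library block; median -0.68), but the score divides by Gsta1 and Gstm3, so this family is close to what chose the members. Gpx1, glutathione peroxidase, was at 91.8 against 1042 CPM in control 1 and 65.7 against 514 in control 2 (log2 -3.34 ± 0.19, adjusted p 0.000536). Gsta4 was at 153 against 1159.5 CPM in control 1 and 114 against 564 in control 2 (log2 -2.71 ± 0.20, adjusted p 0.000751). Gpx4 (2091 against 2158 and 2103 against 2029 CPM) and Gsto1 (933 against 933 and 1207 against 1149 CPM) did not pass. Of retinoid genes 2 of 14 were higher and 4 lower (1 and 2 without the library block, median -0.05). Over all tested genes the shares were 12.5% and 9.16%. The alcohol dehydrogenase Adh4 was lower at 33.8 against 131 CPM in control 1 and 14.3 against 70.4 in control 2 (log2 -2.16 ± 0.18, adjusted p 0.00119). Lrat, which esterifies retinol, was higher at 1.28 on the log2 scale.

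Antigen presentation genes were higher. Class II molecules present peptides to CD4 T cells, and enterocytes are known to carry them. Among class II genes 8 of 10 were higher and 0 lower (6 and 0 without the library block; median 1.65). H2-Ab1, a class II beta chain, was at 640.4 against 101 CPM in control 1 and 418 against 160.1 in control 2 (log2 1.96 ± 0.27, adjusted p 0.00313). The invariant chain Cd74 was at 1476 against 285 CPM in control 1 and 1432 against 580.2 in control 2 (log2 1.76 ± 0.24, adjusted p 0.003). Ciita, the class II transactivator, was at 2.82 against 7.82 and 5.71 against 11.7 CPM and did not pass. Among class I and interferon genes 19 of 28 were higher and 0 lower (13 and 0 without the library block; median 1.19). H2-K1, a class I heavy chain, was at 2119 against 299 CPM in control 1 and 1451 against 470.1 in control 2 (log2 2.15 ± 0.26, adjusted p 0.00235). Its light chain B2m was at 3228 against 679 CPM in control 1 and 2538 against 962 in control 2 (log2 1.75 ± 0.21, adjusted p 0.00229). The interferon-induced Ifit1 was at 159 against 27.4 CPM in control 1 and 166 against 42.8 in control 2 (log2 2.18 ± 0.17, adjusted p 0.000955). The immunoproteasome subunits Psmb8 (666 against 648 and 552 against 678 CPM) and Psmb9 (206 against 226 and 199 against 248 CPM) did not pass. The butyrophilin-like genes Btnl1 (1.503), Btnl2 (1.22) and Btnl6 (0.94), which act on intraepithelial T cells, were higher on the log2 scale, 3 of 5 on a list that also holds Hnf4g. Without the library block, and with DESeq2, only Btnl1 passed.

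Of 15 markers of T or NK cells, Trac and Ccl5 were higher and none was lower, and 0 passed without the library block or with DESeq2. The list summed to 861 against 592 CPM in control 1 and 1079 against 711 CPM in control 2. In the 179 and 83 members of a comparison limited to barcodes without any of the 9 lymphocyte genes, the log2 fold change was 2.29 for H2-Ab1, 2.18 for Cd74 and 2.38 for H2-K1. The 9 genes hold no B or myeloid cell marker. The part of RNA from lymphocytes or other cells in the antigen presentation values was not tested.

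Defence genes of the lower villus were mostly lower, on a list close to the Reg genes of the score: 3 of 17 were higher and 9 lower (0 and 6 without the library block; median -0.62). The lectin Reg3a was at 93.5 against 307 CPM in control 1 and 20.0 against 201 in control 2 (log2 -2.36 ± 0.30, adjusted p 0.00259). The lectin Lgals2 was at 346 against 1497 CPM in control 1 and 155 against 841 in control 2 (log2 -2.35 ± 0.16, adjusted p 0.000638). Pycard, the inflammasome adaptor, was at 97.4 against 634 CPM in control 1 and 124 against 543 in control 2 (log2 -2.50 ± 0.19, adjusted p 0.000795). Its downstream cytokine Il18 was lower as well, at 173 against 663 CPM in control 1 and 149 against 460.3 in control 2 (log2 -1.87 ± 0.16, adjusted p 0.00119). Pigr, the receptor that carries IgA across the epithelium, was higher at 1533 against 791 CPM in control 1 and 2279 against 1282 in control 2 (log2 0.81 ± 0.15, adjusted p 0.00767).

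Transcripts for building proteins and for respiration made up less of the members' RNA. Of cytosolic ribosomal protein genes 0 of 77 tested were higher and 76 lower (0 and 51 without the library block, median -1.44). All 80 genes of the list summed to 32466 against 103207 CPM in control 1 and 29678 against 59899.7 CPM in control 2. Rpl3 was at 114 against 717 CPM in control 1 and 82.8 against 316 in control 2 (log2 -2.40 ± 0.21, adjusted p 0.0012), and Rps27l (678 against 882 and 636 against 708 CPM) was the gene that did not pass. The sum was lower in each successive score group, at 125574, 113167, 60653 and 32466 CPM in control 1 and 83000.0, 55802, 38866 and 29678 CPM in control 2. Of nuclear-encoded respiratory chain genes 0 of 76 were higher and 56 lower (0 and 1 without the library block; median -0.61). Ndufs8, a complex I subunit, was at 133 against 286 CPM in control 1 and 108 against 252 in control 2 (log2 -1.24 ± 0.14, adjusted p 0.00189). With membership set by any Ada, Nt5e or Slc28a2 UMI, 61 of 77 ribosomal and 8 of 76 respiratory genes were lower. Over all 8586 genes tested with that membership, 246 were lower. CPM are shares of a sum, so a smaller share of a group cannot be told apart from more RNA of other genes.

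Outside the lists, lower genes included enzymes. Gmds, which makes GDP-fucose, was at 13.5 against 139 CPM in control 1 and 7.62 against 104 in control 2 (log2 -3.58 ± 0.20, adjusted p 0.000536). The sulfurtransferase family gene Tstd1 was at 71.0 against 477 CPM in control 1 and 21.9 against 272 in control 2 (log2 -3.16 ± 0.21, adjusted p 0.000638). The propionyl-CoA carboxylase subunit Pccb was at 36.6 against 218 CPM in control 1 and 29.5 against 146 in control 2 (log2 -2.55 ± 0.17, adjusted p 0.000638). These 3 genes were named for large changes in the same direction, so their lack of overlap between the groups is only a description. The mitochondrial chaperonins Hspe1 (-1.85) and Hspd1 (-1.77) were lower on the log2 scale as well.

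Among enterocyte transcription factors 3 of 31 were higher and 1 lower (1 and 0 without the library block, median 0.19). Over all tested genes 12.5% were higher and 9.16% lower. Creb3l3, a membrane-bound factor of lipid metabolism, was at 466 against 132 CPM in control 1 and 330.4 against 125 in control 2 (log2 1.54 ± 0.15, adjusted p 0.00147). Hnf4a, a factor of enterocyte identity, was at 179 against 105.3 CPM in control 1 and 291 against 172 in control 2 (log2 0.68 ± 0.13, adjusted p 0.00984), with an adjusted p of 0.20 without the library block. Ppara, a fatty acid receptor in the nucleus, was lower at 17.5 against 34.1 CPM in control 1 and 12.4 against 21.5 in control 2 (log2 -0.99 ± 0.25, adjusted p 0.0279), with an adjusted p of 0.17 without the block. Hnf4g (233 against 268 and 248 against 318 CPM), Vdr (271 against 214 and 376 against 245 CPM) and Maf (689.9 against 552 and 576 against 552 CPM) did not pass.

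Immediate early genes and ErbB genes were often higher. Among immediate early and heat shock genes 12 of 22 were higher and 2 lower (8 and 0 without the library block; median 0.75). Fos was at 206 against 63.7 CPM in control 1 and 169 against 37.7 in control 2 (log2 1.82 ± 0.17, adjusted p 0.0014). Jun, its partner in AP-1, was at 154 against 35.5 CPM in control 1 and 127 against 28.8 in control 2 (log2 2.04 ± 0.15, adjusted p 0.000751). Cell isolation is also known to raise such genes, and its part here was not tested. Among ErbB genes 6 of 8 were higher and 0 lower (4 and 0 without the library block; median 1.38). The ligand Hbegf was at 52.4 against 13.4 CPM in control 1 and 40.9 against 10.1 in control 2 (log2 1.90 ± 0.22, adjusted p 0.00223). The receptor Erbb3 had a log2 fold change of 1.66. Egfr was at 25.3 against 2.24 CPM in control 1 and 15.2 against 5.59 in control 2, but 1 barcode supplied 80.0% of its member UMIs in control 1, and without the 5% deepest barcodes its adjusted p was 0.17. In the BMP pathway, whose activity is known to rise towards the tip, 3 of 12 were higher and 0 lower (1 and 0 without the library block, median 0.39). Over all tested genes the shares were 12.5% and 9.16%. The higher genes were the feedback inhibitor Smad7 (1.08), the receptor Bmpr1a (1.00) and the target Id1 (0.57), given as log2 fold changes. On the same list Id2, Id3 and Smad4 did not pass. Bmpr1a and Id1 did not pass with DESeq2 or without the library block. Smad7 did not pass in barcodes without lymphocyte UMIs, nor with at least 5% of UMIs from Fabp1, Fabp2 and Rbp2.

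None of 13 cell cycle genes passed in either direction with edgeR or with DESeq2, and 1 had an unadjusted p under 0.05 with edgeR. Pcna, the clamp of DNA replication, was at 66.5 against 52.7 and 67.6 against 75.5 CPM. Of crypt genes 3 of 11 were higher and 1 lower (0 and 0 without the library block; median 0.09); Axin2, Soat1 and Ifitm3 were the higher ones and Dmbt1 the lower, and DESeq2 called 0 of the 11. Of apoptosis genes 2 of 16 were higher and 2 lower (1 and 1 without the library block, median 0.32). The apoptosis counts are near the shares over all tested genes, 12.5% higher and 9.16% lower, which also stand beside the crypt counts. The death receptor Tnfrsf1a was higher (1.21), and Bcl2l15, a Bcl2 relative, was lower at 8.45 against 63.0 CPM in control 1 and 2.86 against 26.8 in control 2 (log2 -3.06 ± 0.28, adjusted p 0.00135). Of secretory folding genes 6 of 21 were higher and 2 lower (0 and 0 without the library block), and of bile acid genes 1 of 5 were higher and 1 lower, the higher one being the basolateral exporter subunit Slc51a and the lower the bile acid receptor Nr1h4. Neither passed without the block or with DESeq2.

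Markers of other cells were present in members and in part rested on single barcodes. The goblet list summed to 3054 against 1256 CPM in control 1 and 3832 against 2918 CPM in control 2. Of its 9 genes, Tff3, Clca1 and Zg16 were higher and Spink4 lower, and 0 passed without the library block. A single barcode supplied 58.4% of the members' Fcgbp UMIs and 53.6% of the Muc2 UMIs in control 1. Igkc, an immunoglobulin light chain, stood at 782 against 36.5 CPM in control 1 and 75.2 against 89.99 in control 2 and did not pass, with 93.4% of the members' UMIs in control 1 from 1 barcode. The erythroid list summed to 11016 against 12307 CPM in control 1 and 2717 against 16231 CPM in control 2, with 0 of 6 called by edgeR or DESeq2 and 5 at an unadjusted p under 0.05 with edgeR. Paneth, enteroendocrine and tuft markers gave 1 higher gene each: Itln1 (1.49), Gip (1.06) and Ltc4s (0.93) on the log2 scale, of which Itln1 alone passed without the block or with DESeq2. Of 5 myeloid, 3 B or plasma cell and 1 stromal markers, edgeR and DESeq2 called 0, and 1, 0 and 1 had an unadjusted p under 0.05 with edgeR. With membership set by any Ada, Nt5e or Slc28a2 UMI, 3 of 3 B or plasma cell markers and 5 of 7 Paneth markers were higher. The part of these cells in the results was not tested.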

How the data were processed

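Droplet RNA libraries of 2 control suspensions were analysed. The deposited matrices hold whole-number UMI counts per gene and barcode from Cell Ranger (6.1 and 7.1.0 are named, with GRCm38/mm10, in the submitters' processing notes); not given in the sources used here are how barcodes were kept, the annotation release and intron counting. Members and lists of genes were chosen with earlier results of these data known. UMI counts were summed per library over members and over the other scored barcodes, scaled with TMM, filtered with filterByExpr and fitted with edgeR 4.0.16 (R 4.3.3; quasi-likelihood test, library as block, Benjamini-Hochberg adjustment over all 8994 genes). The block was used because both sums of a library come from 1 suspension. Named genes were the largest called changes in each list at 20 CPM or more and outside the lists at 50 CPM or more, the same way in both libraries, plus abundant list members not past the threshold; any other gene named was chosen after its values were seen. No doublet caller was run; leaving out the 5% deepest barcodes was an alternative, as were DESeq2 1.42.0, other gates and other scores. Depth was 54451793 and 36139325 UMIs per library, and differences between the control libraries cannot be told apart from library. On simulated counts of 8762 genes with the same design, 54.2% of genes changed by 1 on the log2 scale and 92.9% of those changed by 2 were called, with 5 false among 148 calls. The simulation gave each gene a spread set by its level and changed far fewer genes than were called here. Its share of false calls therefore need not hold for the calls in these libraries. Tables and plots used Python 3.11.15, numpy 2.4.6, pandas 2.3.3, scipy 1.17.1 and matplotlib 3.10.9.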

Additional observations from a re-analysis of the deposited data

How the results depend on the processing

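The comparison rests on 2 libraries, a score of few UMIs per barcode, and 1 residual degree of freedom. Without the replicate block, here the library, 492 genes were higher and 178 lower. Of the other settings, DESeq2 gave 553 higher and 426 lower. Limiting the comparison to barcodes without lymphocyte UMIs gave 549 and 394, with 4841 genes tested. A score against Reg genes only gave 729 and 548. At least 5% of UMIs from Fabp1, Fabp2 and Rbp2 left 522 lower genes, and testing without the low-count filter gave 1266 lower genes. The remaining planned settings kept both counts within 1.5 times of 1125 and 824. The planned score without Apoa4 gave no comparison, because its 75th percentile in control 1 was 0. Membership by any Ada, Nt5e or Slc28a2 UMI, added after the data were seen, gave 587 higher and 246 lower genes of 8586 tested. Among the named genes past the threshold, the log2 fold changes of 7 changed sign under it. They were Pck1 (-0.10), Nqo1 (0.11), Nr1h4 (0.15), Axin2 (-0.0115), Tff3 (-0.24), Ltc4s (-0.20) and Enpp7 (-0.0426). Sign changes of named genes not past the threshold are not listed here. With barcodes under 10% mitochondrial UMIs, Hsp90b1 stood at -0.24 and Spink4 at 0.64. Clca1 stood at -0.24 with the score against Reg genes only and at -0.0200 in the top 10% of the score, where Tff3 stood at -0.19. The causes of these changes were not tested. Without either library no test could be made. The 183 named genes past the threshold were chosen to have the same direction in each library, so their agreement is no result. Of the 100 named genes not past it, chosen without that rule, 72 had the same direction. Scaling by total UMIs moved the median of all genes by 0.08 on the log2 scale and gave 1306 higher and 697 lower genes, 65.2% higher against 57.7%. The members' median depth of 1958 and 2206 UMIs limits what is seen in single barcodes: a gene not detected in a barcode may still be expressed there.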
